A study of Mus musculus with 2 samples.

Results

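The miR-30 strands examined here were 7 of the 1881 mouse miRNAs on the array, chosen by name with earlier results of these data known. They were the 5 guide strands mmu-miR-30a-5p, mmu-miR-30b-5p, mmu-miR-30c-5p, mmu-miR-30d-5p and mmu-miR-30e-5p, and the 2 strands from the opposite arm, mmu-miR-30a-3p and mmu-miR-30e-3p, all named below without the species prefix. Their RNA came from exosomes in the culture supernatant of LLC cells, an established mouse Lewis lung carcinoma line. The labels name no allele, treatment, dose or time, so the data hold 1 group of 2 arrays. They are titled LLC Exosome1 (replicate 1) and LLC Exosome2 (replicate 2). These titles do not say whether the exosomes were prepared separately. The cells had been kept in medium with serum depleted of exosomes before the vesicles were pelleted by ultracentrifugation. RNA of the LLC cells themselves, of fibroblasts or of medium without cells was not analysed here, so there was no other group to compare with. Each array reads a bulk preparation, in which fewer vesicles that carry a miRNA and fewer copies in each vesicle cannot be told apart.

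A miRNA is cut from a hairpin precursor, and usually one arm, the guide, is loaded into an Argonaute protein, while the other arm, the passenger, is mostly degraded. The guide finds its target mRNAs mainly through its seed, a short stretch near the 5′ end. The miR-30 guides share their seed and are found in many tissues, with high levels in heart, kidney and epithelia. Known targets include Snai1, a transcription factor that drives epithelial cells towards a mesenchymal state, and connective tissue growth factor, a matricellular protein linked to fibrosis.

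The RefSeq mature sequences (GRCm38.p6) of 5 of the 7 strands were matched by name, and those of miR-30b-5p and miR-30d-5p were not used here. They are shown 5′ to 3′ because the guides differ from each other mainly in their 3′ part, and the capitals mark the seed, bases 2 to 8.
miR-30a-5p: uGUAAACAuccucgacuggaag
miR-30c-5p: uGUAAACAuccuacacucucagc
miR-30e-5p: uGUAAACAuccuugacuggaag
miR-30a-3p: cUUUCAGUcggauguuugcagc
miR-30e-3p: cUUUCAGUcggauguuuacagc
The 3 guides had the seed GUAAACA in common, and the 2 strands from the 3p arm had UUUCAGU. Of the 1679 mature miRNA names in the RefSeq table, 4 carried the guide seed, and the one outside the miR-30 names was miR-384-5p. This count leaves out miR-30b-5p and miR-30d-5p, for which no sequence was matched. The guides miR-30a-5p and miR-30e-5p differed at 1 of 22 positions, whereas miR-30a-5p and miR-30c-5p differed at 5 of the 22 positions counted from the 5′ end. The strands miR-30a-3p and miR-30e-3p also differed at 1 of 22 positions. Whether a probe for one of these strands also binds another was not tested, because probe sequences were not used here.

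The hairpins lie in clusters, and their RefSeq positions are given for GRCm38.p6. The strand miR-30a-5p is at chr1:23272274-23272295 and miR-30a-3p at chr1:23272315-23272336, both on the plus strand. The Mir30c-2 hairpin lies 19361 bases beyond Mir30a, and it gives miR-30c-5p at chr1:23291714-23291736 on the plus strand. A further copy of miR-30c-5p comes from Mir30c-1, at chr4:120769584-120769606 on the minus strand. The Mir30e hairpin lies 2983 bases from Mir30c-1, with miR-30e-5p at chr4:120772660-120772681 and miR-30e-3p at chr4:120772618-120772639 on the minus strand. Mir30c-1 and Mir30e lie within the span of Nfyc, which encodes a subunit of the transcription factor NF-Y, and whether they are intronic was not examined. No gene other than a miRNA gene spanned Mir30a, Mir30c-2, Mir30b or Mir30d in the table used. Mir30b and Mir30d are neighbours on chromosome 15. The array does not distinguish the copies of miR-30c-5p, whose mature sequences are identical.

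Each array held 58594 spots, of which 56430 belonged to 4415 probes for the 1881 mouse miRNAs, and 0 were saturated. The value of a spot is its fluorescence intensity after the scanner software subtracted the background, so a spot without signal scatters around 0 and can be negative. The software also gives a total signal and an error for each probe over its spots, and a probe counted as detected when its total exceeded 3 times its error. This rule was met by 483 probes in replicate 1 and by 406 in replicate 2. The 75th percentile of the probes detected on both arrays was 50.2 intensity units in replicate 1 and 40.0 in replicate 2. The small number of arrays, 2, limits the precision of every value, and no p-value was computed.

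None of the 7 miR-30 strands was called detected by the scanner software on either array, so 0 of 7 were detected on both. Over the whole array 216 miRNAs were detected on both, which was 11.5%, with 13.5% detected in replicate 1 and 11.9% in replicate 2. Each strand was read by 30 spots per array, spread over 3 probes for miR-30a-5p and over 2 probes for each of the other 6 strands. Of these 15 probes, 0 exceeded 3 times their error on either array. In replicate 1 the best probe of a strand lay between -0.14 and 2.53 times its error, and in replicate 2 between -0.29 and 2.41 times. For comparison, the median of the best probe was 6.23 in replicate 1 and 5.49 in replicate 2 over the 216 detected miRNAs. Over the 1621 miRNAs detected on neither array it was 0.23 and 0.17. Other rules gave a like count. With spots well above background, 0 of 7 strands passed on both arrays, against 7.07% of all miRNAs, and 0 of 7 passed when every probe had to be detected, against 7.50%. The mark positive and significant is given to a spot that the software found brighter than its background, and well above background is a stricter mark. A rule that 50% or more of a probe's spots be positive and significant passed 1 of 7, miR-30d-5p, against 24.7%, and a limit lowered to 2 times the error passed the same strand, against 16.1%. These shares over the whole array were above the 1 strand in 7, or close to it. Of the 7 strands, miR-30d-5p came nearest to the limit, and the other 6 stayed below 1 time their error on both arrays.

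**Figure D1:**
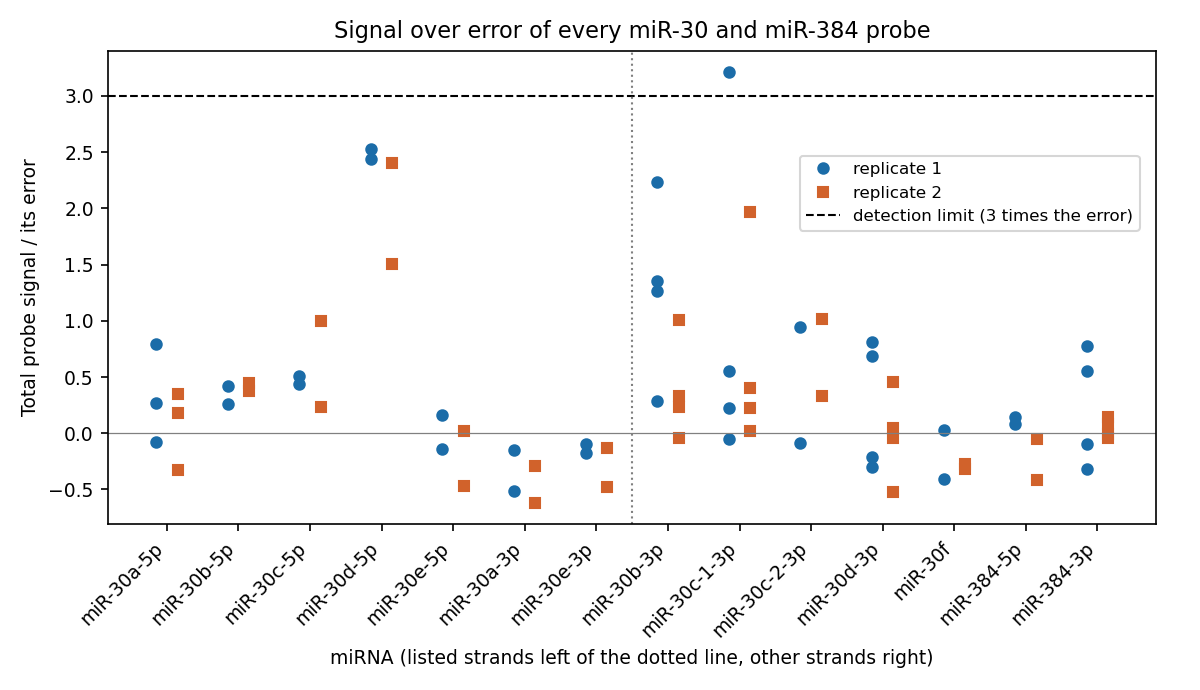
Total signal of each probe divided by its error (vertical axis, no unit) for the 7 listed strands, left of the dotted line, and for 7 related strands on the right. Circles are replicate 1, squares replicate 2, and the dashed line is the detection limit of 3 times the error, which 1 probe of miR-30c-1-3p passed in replicate 1.

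The guide miR-30d-5p gave a low signal that lay above that of most negative control spots on both arrays, although it missed the detection limit. Its 30 spots had a median intensity of 8.13 in replicate 1, with a range from 2.47 to 12.2 after 1 outlier spot was left out. In replicate 2 the median was 6.48, with a range from 0.59 to 10.99. Every spot used was thus above 0, whereas the negative control spots had a median of 0.62 in replicate 1 and 0.74 in replicate 2. The mark positive and significant was given to 29 of the 30 spots in replicate 1 and for 25 of the 30 in replicate 2. Among the 1000 negative control spots of each array, 18.7% in replicate 1 and 21.1% in replicate 2 passed the same test, so the call alone does not mark a real signal. Of the 30 spots of miR-30d-5p, 0 were well above background. The software placed 19 of them in replicate 1 and 24 in replicate 2 within the range of the negative controls.

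Both probes of miR-30d-5p contributed to this signal. The probe A_54_P1271 reached 2.53 times its error in replicate 1 and 2.41 times in replicate 2, with median spot intensities of 8.20 and 7.74. The probe A_54_P1272 reached 2.44 times its error in replicate 1 but 1.51 times in replicate 2, with medians of 7.09 and 4.49. The probes were alike in replicate 1, and in replicate 2 A_54_P1272 was the dimmer one. Relative to the 75th percentile of its own array, the median spot of miR-30d-5p over both probes was at 16.2% in each replicate. The dimmest of the 393 probes detected on both arrays had a median spot intensity of 8.50 in replicate 1 and 8.65 in replicate 2, just above A_54_P1271. With the signals of both probes summed and their errors combined as independent, miR-30d-5p reached 3.51 times its error in replicate 1 and 2.77 times in replicate 2. It would thus have passed the limit in replicate 1, as did 15.0% of all miRNAs under this rule, and missed it in replicate 2, where 13.7% passed. On both arrays together 13.0% of all miRNAs and 0 of the 7 strands passed with summed probes. Of the 1621 miRNAs detected on neither array, 17 others had a best probe at least as far above its error as miR-30d-5p on the weaker of their arrays.

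The other 4 guides had spots on both sides of 0, within the intensities of the negative controls. The spots of miR-30c-5p had a median intensity of 1.76 in replicate 1, from -3.06 to 6.68, and of 1.39 in replicate 2, from -2.55 to 6.68. These medians were above those of the negative controls, 0.62 in replicate 1 and 0.74 in replicate 2. The spots of miR-30b-5p had a median of 0.46 in replicate 1, from -2.86 to 5.98, and of 0.81 in replicate 2, from -2.86 to 7.51. No spot of either was brighter than the brightest negative control spot, with 9.45 in replicate 1 and 9.35 in replicate 2. The guide miR-30a-5p had medians of 0.79 and 0.59, with spots between -4.51 and 6.08 in replicate 1, and between -4.48 and 5.95 in replicate 2. The guide miR-30e-5p, which differs from miR-30a-5p at 1 position in the sequences above, had medians of -0.22 and -1.12, with spots from -4.32 to 5.72 and from -5.46 to 5.84. Neither was detected on either array. Over these 4 guides the best probe lay between 0.16 and 0.79 times its error in replicate 1, and between 0.02 and 0.996 times in replicate 2. The highest of these values belonged to the miR-30c-5p probe A_54_P1270, which was at 0.51 times its error in replicate 1 and had 53.3% positive and significant spots in replicate 2. The other probe of miR-30c-5p, A_54_P3752, was at 0.44 times its error in replicate 1 and at 0.23 times in replicate 2. The miR-30a-5p probe A_54_P2261 had 50% positive and significant spots in replicate 1 and 20% in replicate 2.

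The 2 strands from the 3p arm lay at or below the background. The spots of miR-30a-3p had a median intensity of -1.48 in replicate 1, from -6.47 to 7.14, and of -1.55 in replicate 2, from -5.05 to 4.66. Of its 30 spots, 24 were at or below 0 on each array. The spots of miR-30e-3p had a median of -0.57 in replicate 1, from -4.40 to 4.76, and of -0.38 in replicate 2, from -5.89 to 5.88. All 4 probes of these strands had a negative total signal on both arrays. At this sensitivity neither strand was detectable, and the signal of a guide could not be set against that of its own 3p strand, since miR-30a-5p and miR-30e-5p were not detected either.

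**Figure D2:**
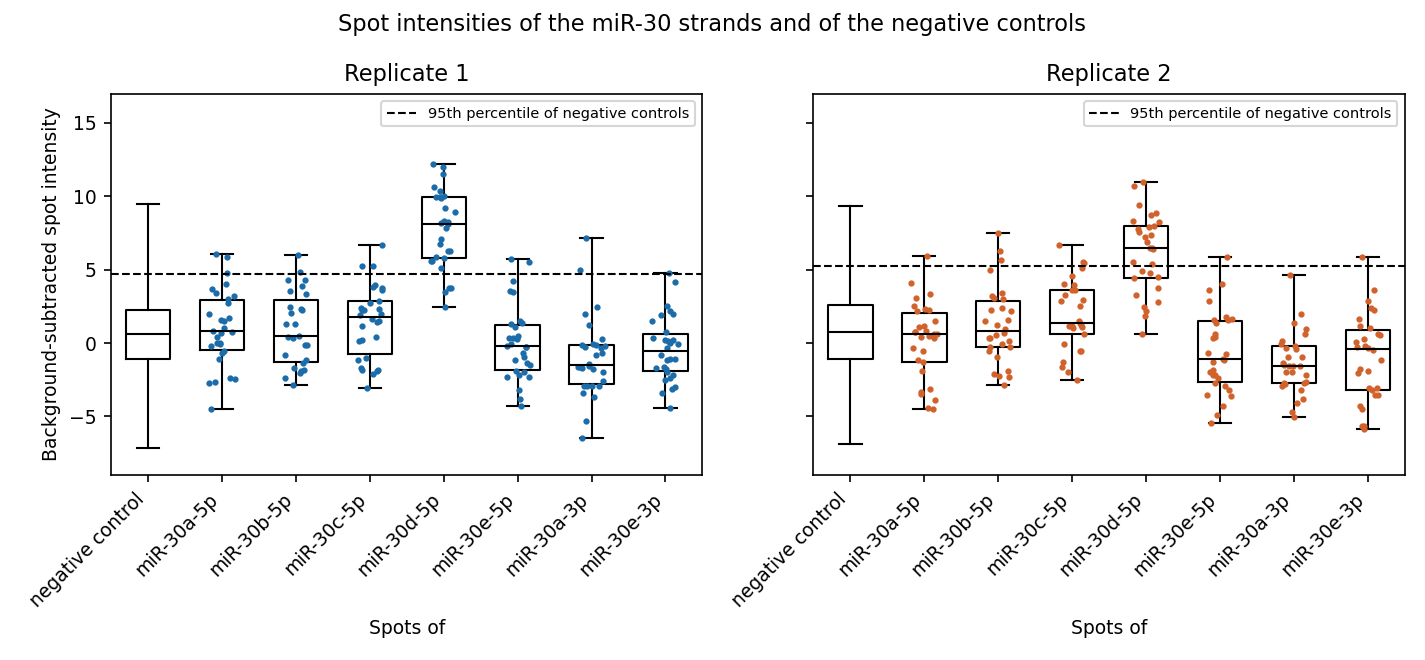
Background-subtracted intensity of single spots (vertical axis, scanner units) for the 7 strands and for the negative controls, with 1 panel for each replicate. Points are spots without outliers, boxes give the quartiles and the median, whiskers the full range, and the dashed line is the 95th percentile of the negative controls, 4.73 in replicate 1 and 5.23 in replicate 2. The box of miR-30d-5p is raised in both panels, and the other boxes overlap that of the controls.

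Over all 7 strands, 42.2% of the spots were at or below 0 in replicate 1 and 42.1% in replicate 2, against 41.8% and 38.4% of the negative control spots. The share of positive and significant spots was 29.5% in replicate 1 and 25.2% in replicate 2. Without miR-30d-5p, which was set apart after its values were seen, it was 18.3% and 15.6%, against 18.7% and 21.1% of the negative controls. Pooled over the other 6 strands, spots were thus called no more often than the negative controls on either array. By strand, in replicate 1 and replicate 2, miR-30b-5p with 30% and 23.3% and miR-30c-5p with 23.3% and 36.7% exceeded the controls. The guide miR-30a-5p exceeded them in replicate 1, with 26.7%, but not in replicate 2, with 13.3%. The guide miR-30e-5p, with 16.7% and 10%, and the 2 strands from the 3p arm, with at most 6.67%, were below them. Spots of a strand share its RNA and its probes and are not replicates of the experiment.

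Ordered by the mean spot intensity over both arrays, miR-30d-5p stood first with 6.91 ± 1.11 (SD, n = 2 arrays). It was followed by miR-30c-5p with 1.68 ± 0.35, miR-30b-5p with 1.13 ± 0.19 and miR-30a-5p with 0.60 ± 0.55. The guide miR-30e-5p with -0.33 ± 0.50, miR-30e-3p with -0.67 ± 0.38 and miR-30a-3p with -1.18 ± 0.28 came last. The lower array mean of miR-30d-5p lay 4.19 above the higher one of miR-30c-5p, which was more than the SD between arrays of either strand. For the other 5 neighbouring pairs the array means overlapped or lay at most 0.18 apart, less than the SD between arrays of any strand, so their order was not resolved. With 2 arrays neither difference was tested. Since binding differs from probe to probe, the order is one of brightness and does not rank the strands by abundance.

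Between the replicates, the best probe of each array was lower in replicate 2 for 5 of the 7 strands. Over all mouse miRNAs the median of the best probe was 0.36 times its error in replicate 1 and 0.29 times in replicate 2. Among the probes of the 7 strands, A_54_P1272 of miR-30d-5p differed most. It was at 2.44 times its error in replicate 1 and 1.51 times in replicate 2. The probe A_54_P2261 of miR-30a-5p was at 0.79 times in replicate 1 and 0.18 times in replicate 2, where A_54_P4363 was the highest of that strand. The mean spot intensity of miR-30d-5p fell by 1.57 between replicate 1, with 7.69 ± 2.66 (SD, 29 spots), and replicate 2, with 6.12 ± 2.67 (SD, 30 spots). For the other strands the change ranged from -0.78 for miR-30a-5p to 0.50 for miR-30c-5p. These intensities are not scaled between the arrays. The 75th percentile named above was 50.2 in replicate 1 and 40.0 in replicate 2. The median spot of miR-30d-5p over both probes was at 16.2% of it in each replicate. By probe, the median spot went from 16.4% in replicate 1 to 19.4% in replicate 2 for A_54_P1271. For A_54_P1272 it went the other way, from 14.1% to 11.2%.

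To set the family on the scale of the array, each spot was divided by the 75th percentile named above, held at the 95th percentile of the negative controls where it was lower, and turned into log2, so that a level of 0 is a signal at the 75th percentile. The median level of the 5 guides was -3.15, and that of the 2 strands from the 3p arm was -3.16. The floor itself was -3.41 in replicate 1 and -2.93 in replicate 2, so these levels are upper bounds and have no order. The median level of the 216 detected miRNAs was -1.43. The level of miR-30d-5p was -2.73 in replicate 1 and -2.58 in replicate 2, with a mean of -2.66 ± 0.11 (SD, n = 2 arrays). Of its spots used, 25 of 29 in replicate 1 and 19 of 30 in replicate 2 lay above the floor. The rest were held at the floor, which thus set this level in part. The other 6 strands lay at or just above the floor, which set their levels. The median difference of replicate 2 minus replicate 1 over the 7 strands was 0.46, which is close to the difference of 0.47 between the floors and says nothing of the miRNAs. Over the detected miRNAs it was 0.25.

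The related strands on the array comprised the remaining strands of the miR-30 hairpins (miR-30b-3p, miR-30c-1-3p, miR-30c-2-3p and miR-30d-3p), miR-30f, and miR-384-5p and miR-384-3p. Of these 7, 0 were detected on both arrays, against 11.5% of all miRNAs. In replicate 1 the software called 1 of the 7, miR-30c-1-3p, against 13.5% of all miRNAs, so the counts lay near the shares over the whole array. The sequences of this strand and of its counterpart from the other miR-30c hairpin are shown because the call separated them, again with bases 2 to 8 in capitals.
miR-30c-1-3p: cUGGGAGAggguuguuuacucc
miR-30c-2-3p: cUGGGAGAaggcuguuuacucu
They differ at 3 of 22 positions and share their seed. The call for miR-30c-1-3p rested on 1 of its 4 probes, A_54_P3396, which reached 3.21 times its error in replicate 1 and 1.97 times in replicate 2. The 7 spots of this probe had a median intensity of 11.4 in replicate 1 and 6.42 in replicate 2, and all of them were positive and significant on both arrays. The other 3 probes stayed between -0.05 and 0.55 times their error. With all 4 probes summed, miR-30c-1-3p reached 1.93 times its error in replicate 1 and 1.26 times in replicate 2, below the limit. The software listed a total of 8.74 for it in replicate 1, which was 8.66 times the 1.01 of its own detected probe, so that total was not used. The best probe of miR-30c-2-3p reached 0.95 and 1.01 times its error.

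Of the remaining related strands, miR-30b-3p came nearest to the limit. Its probe A_54_P3274 reached 2.23 times its error in replicate 1, with a median spot intensity of 6.16, and 1.01 times in replicate 2, with 2.28. Of its 30 spots, 15 were positive and significant in replicate 1 and 7 in replicate 2, so it was raised in 1 replicate only. The best probe of miR-384-5p, which has the guide seed, was at 0.14 and -0.05 times its error, and that of miR-384-3p at 0.78 and 0.14. The best probe of miR-30d-3p, the partner of miR-30d-5p, was at 0.81 and 0.45 times. The sequences of miR-30f and miR-384-5p are shown because they carry the bases of the guide seed, in miR-30f from its first base.
miR-30f: gUAAACAUccgacugaaagcuc
miR-384-5p: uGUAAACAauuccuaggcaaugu
The strand miR-30f, at chr4:120772621-120772642 on the plus strand, overlaps miR-30e-3p on the minus strand by 19 bases. Its best probe was at 0.03 times its error in replicate 1 and -0.28 times in replicate 2, so neither strand of this locus gave a signal above background.

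A pair of other guide families was set beside the miR-30 guides. The let-7 and miR-98 guides, which restrain growth genes in many cell types, had 7 of 9 members detected on both arrays, against 0 of 5 miR-30 guides and 11.5% of all miRNAs. A count of 0 of 5 is near that share, and with 1621 of the 1881 miRNAs detected on neither array, a lack of detection was not particular to miR-30. Their best probe had a median of 5.14 times its error in replicate 1 and 6.13 times in replicate 2, whereas the medians of the miR-30 guides were 0.51 and 0.45. Of the 3 miR-29 guides, which target collagen genes, miR-29a-3p was detected on both arrays, at 6.55 and 6.70 times its error, and miR-29b-3p in replicate 2 alone, at 2.04 and 3.12. The signal of miR-30d-5p was near that of let-7g-5p, one of the let-7 guides that were not detected, at 2.17 and 2.57 times its error. These lists were chosen with earlier results of these data known, and their difference was not tested. They say which probes rose above their error and do not rank families by abundance.

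**Figure D3:**
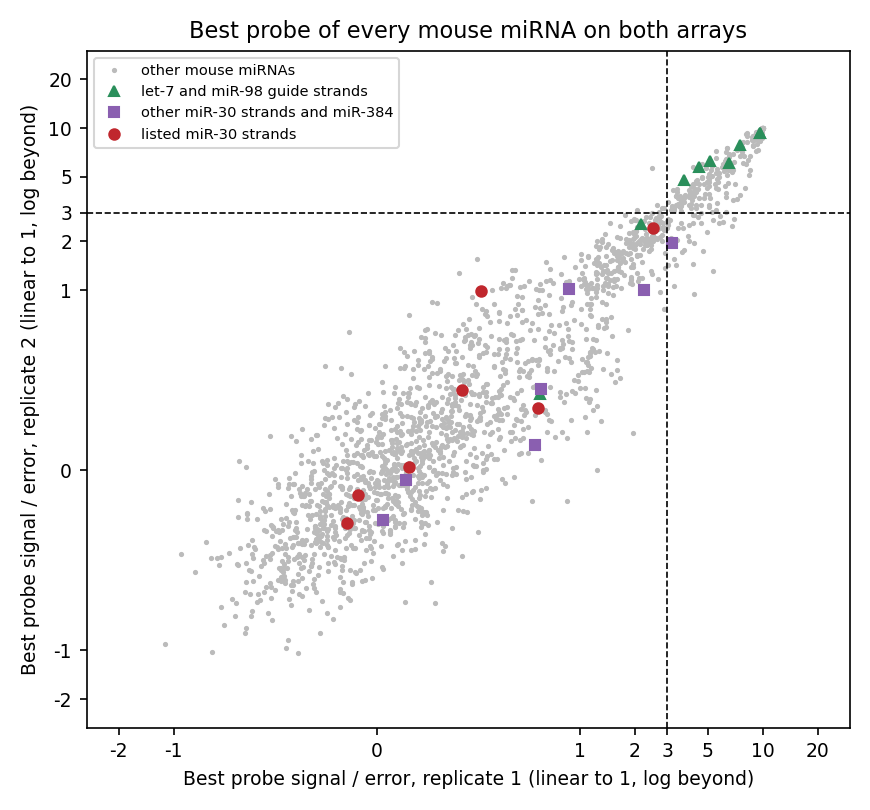
Best probe signal over its error (no unit, linear up to 1 and log beyond) of every mouse miRNA, with replicate 1 on the horizontal and replicate 2 on the vertical axis. Dashed lines are the limit of 3 times the error. The 7 listed miR-30 strands lie below both limits, miR-30d-5p nearest to the corner, whereas 7 of the 9 let-7 and miR-98 guides lie above both.

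The label of the sample was checked against miRNAs that mark cell types. Of 5 miRNAs of the miR-200 family, which mark epithelial cells, 0 were detected on either array, with the best probe between -0.69 and 0.35 times its error in replicate 1, and between -0.29 and 0.29 times in replicate 2. With 13.5% of all miRNAs detected in replicate 1 and 11.9% in replicate 2, a count of 0 of 5 is near the share over the whole array, and it does not show that epithelial markers were absent. The erythroid markers miR-451a and miR-144-3p, 4 leukocyte markers and the liver marker miR-122-5p were not detected either. The nearest of them to the limit was the leukocyte marker miR-223-3p, at 2.39 and 2.60 times its error. Of 3 muscle markers, miR-206-3p was detected on both arrays, whereas miR-1a-3p and miR-133a-3p were not. The level of miR-206-3p on the log2 scale above was -0.92 ± 0.02 (SD, n = 2).

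In the log2 table that the authors deposited, all 7 strands were listed at its lowest value, -3.32, in both columns. So were 1542 of the 1881 mouse miRNAs, or 82.0%, and this value is also the median of each column. The strand miR-30c-1-3p was above the lowest value in replicate 1, with -1.25, and at it in replicate 2. The lowest value equals the log2 of 0.1, the total that the software lists for an undetected miRNA. The 1542 miRNAs at it in both columns are fewer than the 1621 detected on neither array. Some undetected miRNAs were thus above the lowest value in at least 1 column. How the values above it were made is not given in the sources used here, so their scale and centring are unknown. The table holds no order among the 7 strands.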

How the data were processed

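RNA of LLC-derived exosomes was hybridized to 2 Agilent mouse miRNA arrays with 1 dye, Cy3. The authors deposited the fluorescence intensity of each spot, background-subtracted and not normalized between arrays, with totals, errors and flags. Per the file headers the software was Agilent Feature Extraction 10.7.1.1, whereas the submitters' processing notes name version 9.1. The sample labels describe a blood RNA kit with globin removal and amplified cRNA, and whether these steps were applied to exosome RNA was not settled here. The authors also deposited a log2 value for each miRNA, used as an alternative only.

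Outlier spots were left out. Spots were divided by the 75th percentile over the means of the 393 probes detected on both arrays, held at a floor, turned into log2 and averaged per probe, then per miRNA. The floor is the 95th percentile of the negative control spots. It was chosen after the values were seen, because the lowest positive value, at -19.7 and -19.3 on the log2 scale, would set the levels of undetected miRNAs. A miRNA was detected when the software called it. No test was run, since there is 1 group of 2 arrays.

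The named miRNAs are the 7 strands, all other miR-30 strands and miR-384 on the array, and members of the comparison and marker lists where the count is 5 or fewer. Among these lists, let-7g-5p and miR-223-3p were singled out after their values were seen. The members and lists were chosen with earlier results of these data known. Sequences and names came from RefSeq tables for GRCm38.p6, in which 5 of the 7 strands and 5 of the 7 related strands were matched. The summaries were tested on simulated data. The simulated miRNAs with signal lay well above the detection limit, so that test does not bear on strands near the limit. Python 3.11.15, numpy 2.4.6 and pandas 2.3.3 were used, with R 4.3.3 and limma 3.58.1 for normexp background correction (offset 50).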

Additional observations from a re-analysis of the deposited data

How the results depend on the processing

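The number of miR-30 strands detected on both arrays was 0 of 7 with spots well above background (7.07% of all miRNAs passed), with every probe detected, with all probes summed, and with either replicate left out. It was 1, miR-30d-5p, under a rule of positive and significant spots for 50% or more of a probe (24.7% of all miRNAs passed) or under a limit of 2 times the error (16.1%). These calls demand less by construction. The summed probes, the limit of 2 times the error and the floor at the lowest positive value were alternatives chosen after seeing the data.

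The median level of the guides, -3.15, was 1.07 with the 75th percentile over all probes, -0.71 with normexp, -8.05 with the software's total per miRNA and -10.1 with the floor at the lowest positive value. That of the 3p strands, -3.16, was 1.05, -0.71, -8.05 and -15.1 in the same order. Each of these settings changes the scale or the floor, and the total is a fixed 0.1 for undetected miRNAs. The median difference between replicates, 0.46, was 0.27 with all probes, 0.16 with normexp, 0.16 with the total, 0 in the deposited log2 table and 0.16 with the lowest positive floor. With the brightest probe the guides were at -3.14 and miR-30d-5p, at -2.66 otherwise, at -2.55. The median over spots, -3.17, is the mean of both floors, and the deposited -3.32 is the lowest value of that table, shared by 82.0% of miRNAs, so neither bears on the levels. With either replicate left out, the guides ranged from -3.38 to -2.92 and the 3p strands from -3.39 to -2.93.

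The sum of detected probes gave no value, because 0 probes were detected. No paired analysis was possible because both arrays belong to the same group. Signal over background limits every statement on these strands, which concern detection and not absence.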
